A study of Mus musculus with 2 samples.

Results

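The 10 genes described here encode the 3 TGF-beta ligands (Tgfb1, Tgfb2 and Tgfb3), their receptors (Tgfbr1, Tgfbr2 and Tgfbr3), 3 latent TGF-beta binding proteins (Ltbp1, Ltbp3 and Ltbp4) and the signal transducer Smad3. They were taken by symbol from the 54754 features of the deposited matrices, and each symbol matched 1 feature in both libraries. Nuclei came from the ascending aorta and aortic arch of mice that all carried Wnt1-Cre and the Rosa26-mTmG reporter, with 1 library of pooled Female tissue and 1 of pooled Male tissue. Per the labels, each pool held 6 mice and was split into 2 technical replicates, which the barcodes do not separate. No age and no treatment is given in the sources used here. Wnt1-Cre is active in the embryonic neural crest, so the reporter gives GFP in cells of that lineage and tdTomato in the others. It marks ancestry and not Cre activity in the adult aorta.

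TGF-beta ligands are secreted in a latent form, each ligand dimer being held by its own propeptide. In the large latent complex that propeptide is bound to an LTBP, which anchors it to microfibrils until integrins, proteases or thrombospondin release the ligand. Free ligand binds the kinase receptor encoded by Tgfbr2, which recruits and activates the kinase encoded by Tgfbr1, and the co-receptor betaglycan (Tgfbr3) presents ligand, above all TGF-beta 2. The activated receptors phosphorylate Smad2 and Smad3. In humans, mutations in TGFB2, TGFB3, TGFBR1, TGFBR2 and SMAD3 cause heritable aneurysm of the thoracic aorta.

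Unique molecular identifiers (UMIs) summed to 79294181 for Female and 77989549 for Male barcodes. Of 18863 Female and 20653 Male nuclei with at least 300 genes, 92.4% and 91.7% could be assigned to a class by the largest of 5 sums of 3 marker genes, with a sum of at least 3 UMIs. This gave 8124 Female and 7656 Male muscle nuclei (Myh11, Acta2 and Lmod1), 5166 and 6766 endothelium nuclei (Ptprb, Flt1 and Pecam1), and 2181 and 2477 fibroblast nuclei (Pdgfra, Dcn and Scara5). It also gave 1475 and 1334 fat nuclei (Adipoq, Plin1 and Plin4) and 481 and 696 macrophage nuclei (Mrc1, F13a1 and Cd163). Of 6 further markers per class, all 6 were highest in their own class in both libraries, except that Col15a1 of the fibroblast list was higher in muscle. The classes are marker ranges and can hold other cells. The B cell list summed to 858 and 574 CPM in Female and Male macrophage nuclei. Bank1 alone made up 99.8% and 99.8% of that sum, and 1 and 2 of the 5 B cell markers were at 0. The mesothelial list summed to 144 and 269 CPM in fibroblast nuclei. The pericyte list summed to 423 and 365 CPM in muscle nuclei and 679 and 566 CPM in fibroblast nuclei, mostly Abcc9, and the heart muscle list to 743 and 755 CPM in muscle nuclei, mostly Ryr2, with 1 of its 5 markers at 0. The part of these nuclei in the results was not tested. The libraries shared 4287 barcode sequences, and 26.6% of them fell in the same class in both, against 26.4% from the class sizes alone.

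Levels are given in CPM, counts of a gene's UMIs scaled to the summed UMIs of a class in 1 library. They were compared with edgeR's quasi-likelihood test on the 10 sums of 5 classes in 2 libraries. Each class was set against the mean of the other 4 on the log2 scale, and neighbours in a gene's order of levels were compared in pairs. Wording such as higher than the other 4 classes refers to that log2 mean, which a very low class pulls down. A class called higher can therefore lie below some of the others. Log2 fold changes come from that fit with their SE, and the adjusted p is Benjamini-Hochberg over all 19475 genes tested, with 0.05 as the threshold. All 10 members had the 50 UMIs needed to be tested. Calls were common between classes: muscle differed from endothelium in 44.9% of genes, from fibroblast in 38.1%, from fat in 62.3% and from macrophage nuclei in 43.3%. Endothelium differed from fibroblast in 38.4%, from fat in 64.3% and from macrophage nuclei in 38.1%, fibroblast from fat in 61% and from macrophage nuclei in 40.7%, and fat from macrophage nuclei in 52.7%. The library was a block in the fit, so the spread is what remains between the Female and Male pools after their common difference is removed. With 1 pool per sex, it does not measure the spread between mice. Markers of one class were also counted in the others. The 6 further muscle markers had a median of 7.11% and 7.19% of their muscle level in Female and Male endothelium nuclei, and the 6 further fibroblast markers 32.4% and 26.4% of their fibroblast level in muscle. The parts of free RNA, doublets and expression in these values were not tested.

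**Figure D1:**
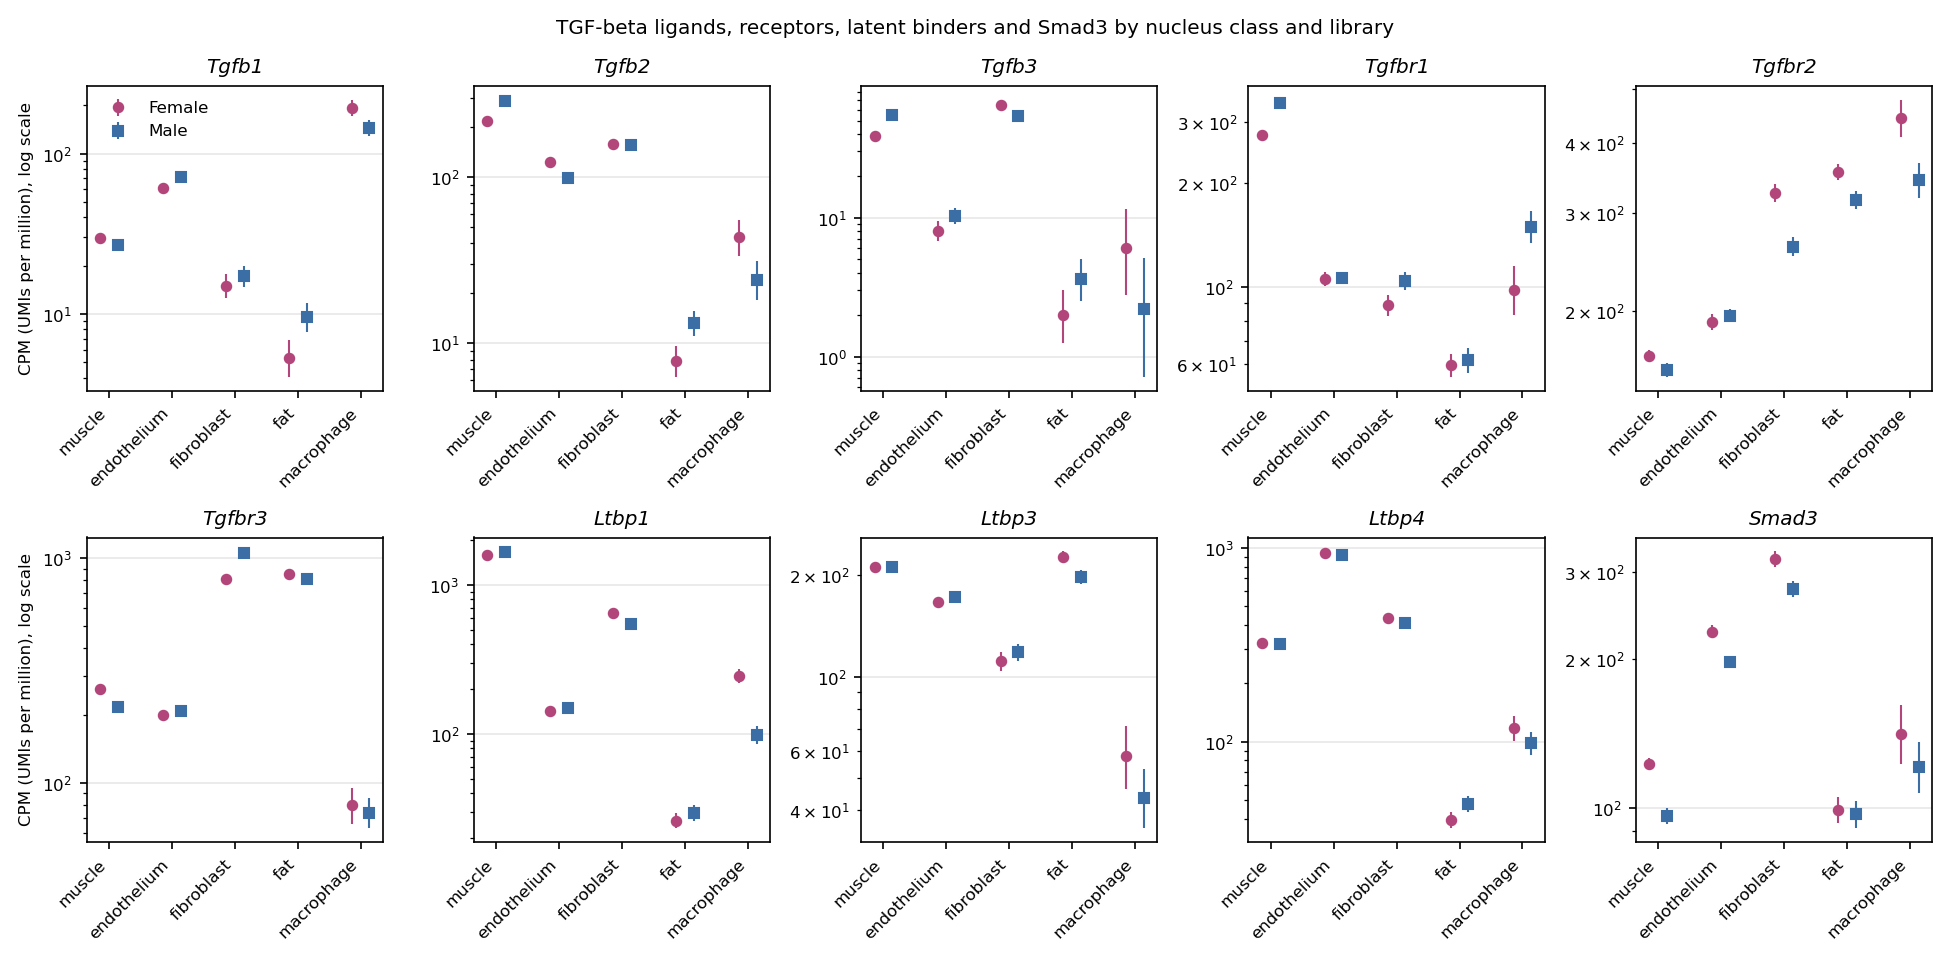
Level of each of the 10 members (CPM, log scale) in the 5 nucleus classes, with the Female library as circles and the Male library as squares. Bars are exact 95% Poisson intervals, which cover counting error only, and Ltbp1 stands at 1596 and 1669 CPM in muscle, while Tgfb1 is highest in macrophage nuclei and Ltbp4 in endothelium.

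Promoters are shown for 4 members whose highest class differs or that moved together: Tgfb1 (macrophage), Ltbp4 (endothelium), and Tgfb2 and Ltbp1 (muscle). Each is 250 bases before to 50 after a RefSeq transcript start on GRCm38.p6, written along the gene's strand. RefSeq promoters were matched for 8 of the 10 members. For Ltbp1, 1 of 2 listed starts is shown, and for Ltbp4 1 of 3. The windows are chr7:25686752-25687051 (plus strand) for Tgfb1, chr1:186705940-186706239 (minus) for Tgfb2, chr17:75005279-75005578 (plus) for Ltbp1 and chr7:27337563-27337862 (minus) for Ltbp4. Capitals mark matches on either strand to CAGAC, the core of the Smad-binding element, to TGACGTCA, the cAMP response element, or to GGGCGG, the GC box bound by Sp1 factors.
Tgfb1: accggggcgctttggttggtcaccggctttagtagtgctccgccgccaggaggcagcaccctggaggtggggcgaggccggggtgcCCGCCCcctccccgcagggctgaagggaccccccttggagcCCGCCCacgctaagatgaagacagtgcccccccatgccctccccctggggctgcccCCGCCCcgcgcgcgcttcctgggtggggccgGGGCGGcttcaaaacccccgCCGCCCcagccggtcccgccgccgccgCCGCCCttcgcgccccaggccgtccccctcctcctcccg
Tgfb2: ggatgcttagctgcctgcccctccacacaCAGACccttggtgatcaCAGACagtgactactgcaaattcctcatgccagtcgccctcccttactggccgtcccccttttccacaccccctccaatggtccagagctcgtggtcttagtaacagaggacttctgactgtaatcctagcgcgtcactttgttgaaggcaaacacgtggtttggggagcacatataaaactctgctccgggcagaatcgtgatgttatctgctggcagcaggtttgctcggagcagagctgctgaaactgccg
Ltbp1: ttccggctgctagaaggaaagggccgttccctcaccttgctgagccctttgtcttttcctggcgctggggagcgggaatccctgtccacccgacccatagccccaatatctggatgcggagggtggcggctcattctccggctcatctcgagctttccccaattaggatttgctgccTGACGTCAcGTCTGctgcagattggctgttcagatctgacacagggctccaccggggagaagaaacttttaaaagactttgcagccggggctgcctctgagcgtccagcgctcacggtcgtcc
Ltbp4: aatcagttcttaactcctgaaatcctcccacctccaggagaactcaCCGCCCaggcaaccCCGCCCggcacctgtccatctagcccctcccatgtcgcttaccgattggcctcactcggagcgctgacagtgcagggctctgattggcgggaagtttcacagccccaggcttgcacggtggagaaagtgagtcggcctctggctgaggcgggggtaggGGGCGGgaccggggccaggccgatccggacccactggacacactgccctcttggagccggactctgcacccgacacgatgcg
The Tgfb1 window held 6 GC boxes and the Ltbp4 window 3, and 35.7% of all 32851 promoters held at least 1. The Tgfb2 window held 2 copies of CAGAC and the Ltbp1 window 1, a motif found in 49.6% of promoters. Among matched windows not shown, those of Tgfbr1 (led by muscle) and Smad3 (led by fibroblast) each held 2 GC boxes and 0 copies of CAGAC. The window of Tgfbr2 (led by macrophage nuclei) held 1 CAGAC and that of Ltbp3 held 2, both with 0 GC boxes. The Ltbp1 window also held 1 full cAMP response element, next to its CAGAC and not overlapping it, which 1.79% of promoters held. The CArG box, the serum response factor motif of many smooth muscle genes, was found in 1.63% of promoters and in none of the 8 matched windows of the members. G and C made up 77.0% of the Tgfb1 window, 64.3% of Ltbp4, 58.7% of Ltbp1 and 54.3% of Tgfb2, against a median of 52.7% over all promoters.

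The ligands differed in their leading class. Tgfb1 (chr7:25687002-25705077 on GRCm38, plus strand) was led by macrophage nuclei, with 192 CPM in Female and 144 in Male nuclei. Endothelium nuclei had 61.1 and 70.9 CPM, muscle 29.9 and 26.7, fibroblast 15.02 and 17.2, and fat 5.32 and 9.53. The libraries of neighbouring classes did not overlap, and each step of this order passed the test. Macrophage nuclei were above the other 4 classes by 2.88 on the log2 scale (SE 0.154, edgeR adjusted p = 1.69e-07) and above endothelium by 1.27 (SE 0.195, edgeR adjusted p = 0.000459). Muscle did not differ from the mean of the other 4 by the test (-0.13, SE 0.154, edgeR adjusted p = 0.537).

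Tgfb2 (chr1:186622792-186705989, minus strand), the ligand that needs betaglycan most for binding, was led by muscle nuclei with 218 and 287 CPM in the Female and Male libraries. Fibroblast nuclei followed with 159 and 156 CPM and endothelium with 123 and 98.8 CPM, and macrophage nuclei had 43.7 and 24.1 and fat 7.84 and 13.3 CPM. Muscle was above fibroblast by 0.81 (SE 0.230, edgeR adjusted p = 0.0189), while fibroblast and endothelium did not differ by the test (0.46, SE 0.231, edgeR adjusted p = 0.150), but did with no filter on low genes (0.42, edgeR adjusted p = 0.00924). Against the other 4 classes, muscle was higher by 2.48 (SE 0.169, edgeR adjusted p = 1.15e-06) and fat was lower (-3.43, SE 0.255, edgeR adjusted p = 1.13e-06). In fat the level was 3.60% and 4.62% of that in muscle, against a range of 1.26% to 5.90% in the Female and 1.05% to 4.23% in the Male library for the further muscle markers, so that the Male value lay above all 6.

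Tgfb3 (chr12:86056745-86079041, minus strand), the third ligand, was shared by fibroblast nuclei, with 65.0 and 53.6 CPM, and muscle nuclei, with 38.6 and 54.5 CPM. Those 2 classes overlapped between libraries and did not differ by the test (0.24, SE 0.203, edgeR adjusted p = 0.397). Muscle was above endothelium, which had 8.02 and 10.3 CPM, by 2.42 (SE 0.221, edgeR adjusted p = 9.82e-06). Fat had 1.98 and 3.62 CPM and macrophage nuclei 6.05 and 2.20, the last from 9 and 5 UMIs, and both lay within the range that the fibroblast markers show there. Tgfb3 overlaps the protein-coding gene Ttll5, and with the strand setting of the counting not given, reads of the 2 cannot be told apart.

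Ltbp1 and Ltbp4 had different leading classes, and Ltbp3 had no single one. Ltbp1 (chr17:75005568-75392512, plus strand), which tethers the latent complex to microfibrils, had 1596 and 1669 CPM in muscle nuclei. Fibroblast nuclei had 649 and 546 CPM, macrophage 245 and 98.8, endothelium 143 and 150.1, and fat 26.1 and 29.5. Muscle stood above the other 4 classes by 3.66 (SE 0.182, edgeR adjusted p = 1.08e-07), the largest member difference for muscle, and above fibroblast by 1.59 (SE 0.270, edgeR adjusted p = 0.000964). At least 1 Ltbp1 UMI was found in 89.2% of Female and 84.1% of Male muscle nuclei, with median depths of 3844.5 and 3015.5 UMIs, against 10.4% and 9.90% of fat nuclei at 6875 and 6979 UMIs. After thinning each nucleus to 1000 UMIs the shares were 68.2% and 67.9% in muscle and 1.78% and 2.58% in fat. Its endothelium level was 8.97% and 8.99% of the muscle level, within the range of the further muscle markers (3.15% to 12.7% and 3.53% to 10.2%), and its source was not tested. In subsets of endothelium it had 169 and 165 CPM in nuclei with Nrg1 and Emcn, against 85.3 and 135 CPM in those with Ankrd33b and Fgfr3.

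Ltbp4 (chr7:27305136-27337692, minus strand), which also takes part in elastic fibre assembly, was led by endothelium nuclei with 944 and 914 CPM. Fibroblast nuclei had 432 and 408 CPM, muscle 321 and 319, macrophage 117 and 98.4, and fat 39.3 and 47.8. The Female and Male values of a class lay close together and no 2 classes overlapped. Endothelium was above the other 4 classes by 2.57 (SE 0.0830, edgeR adjusted p = 1.38e-08) and above fibroblast by 1.19 (SE 0.119, edgeR adjusted p = 2.58e-05). Fibroblast and muscle did not differ by the test (0.26, SE 0.118, edgeR adjusted p = 0.111). An Ltbp4 UMI was found in 86.4% and 84.0% of endothelium nuclei at median depths of 3181 and 3098.5 UMIs, against 22.4% and 22.6% of the deeper fat nuclei.

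Ltbp3 (chr19:5740904-5758532, plus strand), an LTBP that binds all 3 ligands, was lowest in macrophage nuclei. Fat nuclei had 227 and 198 CPM, muscle 212 and 212, endothelium 167 and 172, fibroblast 111 and 118, and macrophage 57.8 and 43.5. Fat and muscle overlapped and did not differ by the test (-0.12 for fat over muscle, SE 0.126, edgeR adjusted p = 0.417), and the sign of that value is opposite to the order of the mean CPM. Muscle was above endothelium by 0.41 (SE 0.125, edgeR adjusted p = 0.0233) and endothelium above fibroblast by 0.61 (SE 0.127, edgeR adjusted p = 0.00366). The limit on strand given for Tgfb3 also holds for Ltbp3.

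Muscle was the highest class for one kinase receptor and the lowest for the other. Tgfbr1 (chr4:47353222-47414931, plus strand), the receptor that phosphorylates the Smads, was led by muscle nuclei with 275 and 342 CPM. Macrophage nuclei had 98.2 and 149 CPM, endothelium 106 and 106, fibroblast 88.6 and 104, and fat 59.4 and 61.4. Within macrophage nuclei, 37 and 53 nuclei with Cybb and Mmp12 held 65 of 146 and 157 of 340 Tgfbr1 UMIs. They stood at 417 and 696 CPM, above the level of the muscle class, while nuclei with Lyve1 and Cbr2 had 52.9 and 81.8 CPM. The Cybb nuclei also had 744 and 164 CPM of Ltbp1 and 276 and 66.5 CPM of Tgfb2, both members led by muscle. Over all macrophage nuclei, 5 nuclei held 38.4% and 26.2% of Tgfbr1 UMIs, and nuclei called as doublets 21.9% and 15.3%. The part of doublets in the Cybb values was not tested. Muscle was above the other 4 classes by 1.84 (SE 0.103, edgeR adjusted p = 2.47e-07). Macrophage, endothelium and fibroblast did not differ between neighbours by the test, and fibroblast was above fat by 0.66 (SE 0.149, edgeR adjusted p = 0.00313).

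Tgfbr2 (chr9:116084293-116175360, minus strand), the receptor that binds ligand first, was highest in macrophage nuclei, with 443 and 343 CPM, and lowest in muscle, with 166 and 157 CPM. Fat had 355 and 316 CPM, fibroblast 325 and 261, and endothelium 191 and 196. Against the other 4 classes, macrophage nuclei were higher by 0.66 (SE 0.0943, edgeR adjusted p = 0.000275) and fat by 0.42 (SE 0.0922, edgeR adjusted p = 0.00233), and muscle was lower (-0.74, SE 0.0994, edgeR adjusted p = 0.000165). Macrophage, fat and fibroblast overlapped along the order, and of the 4 steps only fibroblast over endothelium passed (0.54, SE 0.120, edgeR adjusted p = 0.00491).

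Tgfbr3 (chr5:107106570-107289629, minus strand), the co-receptor betaglycan, was high in fibroblast nuclei, with 808 and 1054 CPM, and in fat, with 847 and 808 CPM. Those 2 classes overlapped. Muscle had 263 and 219 CPM, endothelium 199.5 and 208, and macrophage 79.4 and 73.3. Fibroblast was above the other 4 classes by 1.94 (SE 0.107, edgeR adjusted p = 2.93e-07) and fat by 1.74 (SE 0.108, edgeR adjusted p = 2.87e-07), while fibroblast and fat did not differ by the test (0.17, SE 0.148, edgeR adjusted p = 0.359). The lower level in muscle passed narrowly (-0.33, SE 0.121, edgeR adjusted p = 0.0452), and adjusted p lay between 0.0521 and 0.574 in 7 alternatives, among them -0.11 with doublets left out.

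Smad3 (chr9:63646767-63757994, minus strand), the transducer downstream of the receptors, was highest in fibroblast nuclei, with 318 and 277 CPM. Endothelium had 227 and 197 CPM, macrophage 141 and 121, muscle 123 and 96.5, and fat 99.3 and 97.2. Fibroblast was above the other 4 classes by 1.14 (SE 0.0759, edgeR adjusted p = 1.16e-06) and above endothelium by 0.44 (SE 0.102, edgeR adjusted p = 0.00608). Muscle was below the other 4 classes (-0.50, SE 0.0836, edgeR adjusted p = 0.000677). Muscle over fat passed the test (0.28, SE 0.103, edgeR adjusted p = 0.0389) although the libraries overlapped, and it did not pass in 5 alternatives, with adjusted p between 0.0522 and 0.129.

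Counted by class against the log2 mean of the other 4, muscle had 6 members higher, with 24.3% of all genes tested called higher. It had 3 lower, with 23% called lower (47.3% in all). Such a call does not place a class above each of the others. Ltbp4 was called higher in muscle (0.76) at 321 and 319 CPM, below endothelium (944 and 914) and fibroblast (432 and 408). Fibroblast had 6 higher (23.9% of all genes) and 3 lower (19.7%, 43.6% in all), and endothelium 5 higher (24.3%) and 3 lower (21.4%, 45.7% in all). Fat had 3 higher (32.8%), namely Tgfbr2, Tgfbr3 and Ltbp3, and 7 lower (33.3%, 66% in all). Macrophage nuclei had 2 higher (19.3%), Tgfb1 and Tgfbr2, and 7 lower (22.3%, 41.6% in all). Some lower calls were lost in alternatives. Ltbp3 in fibroblast nuclei had edgeR adjusted p from 0.0587 to 0.186 in pure nuclei, without doublets and after thinning, and Tgfbr1 there 0.187 after thinning. Ltbp1 in endothelium had 0.0593 in pure nuclei and 0.0720 without doublets. In macrophage nuclei Ltbp1 had 0.0513 with DESeq2's size factors and 0.0825 with no block, and Smad3 0.113 after thinning. The median log2 value of the members was 0.85 in muscle, 0.13 in endothelium, 1.11 in fibroblast, -1.97 in fat and -1.04 in macrophage nuclei. Over all genes those medians lay between -0.22 and -0.01. The 45 called values had the same sign in the Female and the Male library taken alone. They were called from those same libraries, so the shared sign is no separate check. Ltbp1 in macrophage nuclei ran from -1.35 to -0.03. All 3 ligands were lower in fat than the log2 mean of the other 4 classes, while 2 of the 3 receptors were above that mean.

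**Figure D2:**
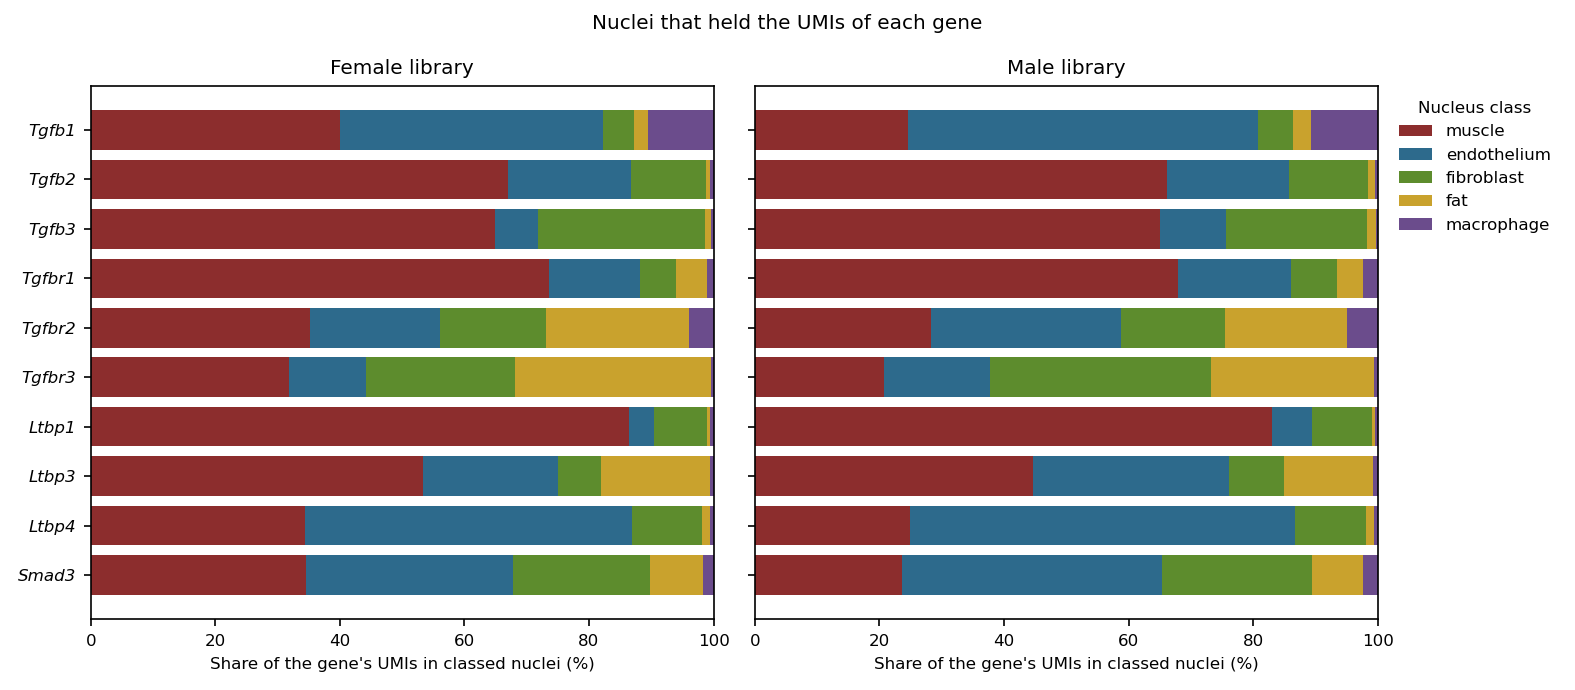
Share of each member's UMIs in classed nuclei (%, horizontal bars from 0 to 100) held by each of the 5 classes, for the Female library on the left and the Male library on the right. Muscle held 86.4% and 83.0% of Ltbp1, and endothelium 52.4% and 61.8% of Ltbp4.

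Weighting by the number of nuclei and their depth, muscle held most UMIs of Tgfb2 (67.0% in Female and 66.1% in Male nuclei), Tgfb3 (64.8% and 65.0%), Tgfbr1 (73.6% and 67.9%) and Ltbp1 (86.4% and 83.0%). Tgfb1 was spread differently: macrophage nuclei had the highest level but held 10.6% and 10.7% of its UMIs. Endothelium held 42.3% and 56.2% of them and muscle 40.0% and 24.5%. Tgfbr3 came from muscle (31.8% and 20.7%), fat (31.4% and 26.2%) and fibroblast nuclei (23.9% and 35.5%). These shares follow the numbers of nuclei recovered, and fewer nuclei of a type and less RNA per nucleus cannot be told apart in them.

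A list of 54 other TGF-beta pathway genes, chosen with earlier results of these data known, was read from the same fit, in which 53 were tested. Muscle had 27 higher and 8 lower, where 24.3% and 23% of all genes were called higher and lower. Fibroblast had 31 and 8 (23.9% and 19.7% of all genes), endothelium 23 and 10 (24.3% and 21.4%), macrophage 7 and 30 (19.3% and 22.3%), and fat 8 and 36 (32.8% and 33.3%). The median log2 value of the list was 0.47, 0.48, 0.24, -0.93 and -1.63 in that order. Genes called higher in muscle included Postn (periostin, a matrix target) with 637 and 721 CPM in the Female and Male libraries (4.62, SE 0.201). Itgb3, an integrin subunit of latent TGF-beta activation (3.69, SE 0.111), and Wwp2, a ubiquitin ligase that targets Smads (3.21, SE 0.0686), were also higher, and Tgfbi (-2.62, SE 0.257), Nrros (-1.80), Bhlhe40 (-1.37) and Acvr1c (-0.96) were lowest. Of the 12 target genes on the list, 8 were higher in muscle and 2 lower, and in fibroblast nuclei 8 were higher and 1 lower.

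Endothelium was led by Thbs1 (thrombospondin 1, an activator of latent TGF-beta) with 166 and 235 CPM (4.48, SE 0.215) and Eng (endoglin, an endothelial co-receptor) with 487 and 429 CPM (3.62, SE 0.138). Lrrc32, which displays latent TGF-beta at the cell surface (3.37, SE 0.140), and the inhibitory Smad7 (2.72, SE 0.123) came next, and Tgfbi (-2.10), Acvr1c (-1.70), Postn (-1.21) and Col3a1 (-1.20) were lowest. Fibroblast nuclei were led by Dact1 (4.62, SE 0.147), the gelatinase gene Mmp2 (4.22, SE 0.131) and the microfibril gene Fbn1 with 859 and 1456 CPM (4.09, SE 0.170). Fbn2 was also called there at only 1.24 and 0.895 CPM, and macrophage nuclei had 0 in both libraries. Nrros (-3.34), Acvr1c (-2.14) and Wwp2 (-1.44) were lower in fibroblast nuclei.

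Macrophage nuclei were led by Nrros, which holds latent TGF-beta 1 on myeloid cells, with 999 and 775 CPM against at most 22.3 CPM in any other class (7.34, SE 0.190). Tgfbi had 621 and 714 CPM there (5.05, SE 0.185), and the corepressor Tgif1 (1.64, SE 0.260) and Fn1, fibronectin (1.54, SE 0.212), were also called higher. Fn1 had 473 and 260 CPM in macrophage nuclei, 328 and 325 in fibroblast, 242 and 294 in muscle, 191 and 201 in endothelium and 8.20 and 16.2 in fat. Its Male macrophage value thus lay below those of fibroblast and muscle. Ltbp2 (-2.82), Lrrc32 (-2.69) and Spsb1 (-2.69) were lowest, as was Bambi, a decoy receptor, with 0 and 0.878 CPM. Fat was led by Acvr1c (the receptor kinase ALK7) with 539 and 639 CPM against at most 21.1 CPM in any other class (5.73, SE 0.132). Ltbp2 (2.89, SE 0.137), Bhlhe40 (2.76, SE 0.159) and Ppm1a (0.93, SE 0.0815) followed, and Fn1 (-4.58), Eng (-3.91), Itgb8 (-3.76) and Fbn1 (-3.63) were lowest in fat. All these named calls passed the test (edgeR adjusted p from 3.86e-10 to 0.00732).

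**Figure D3:**
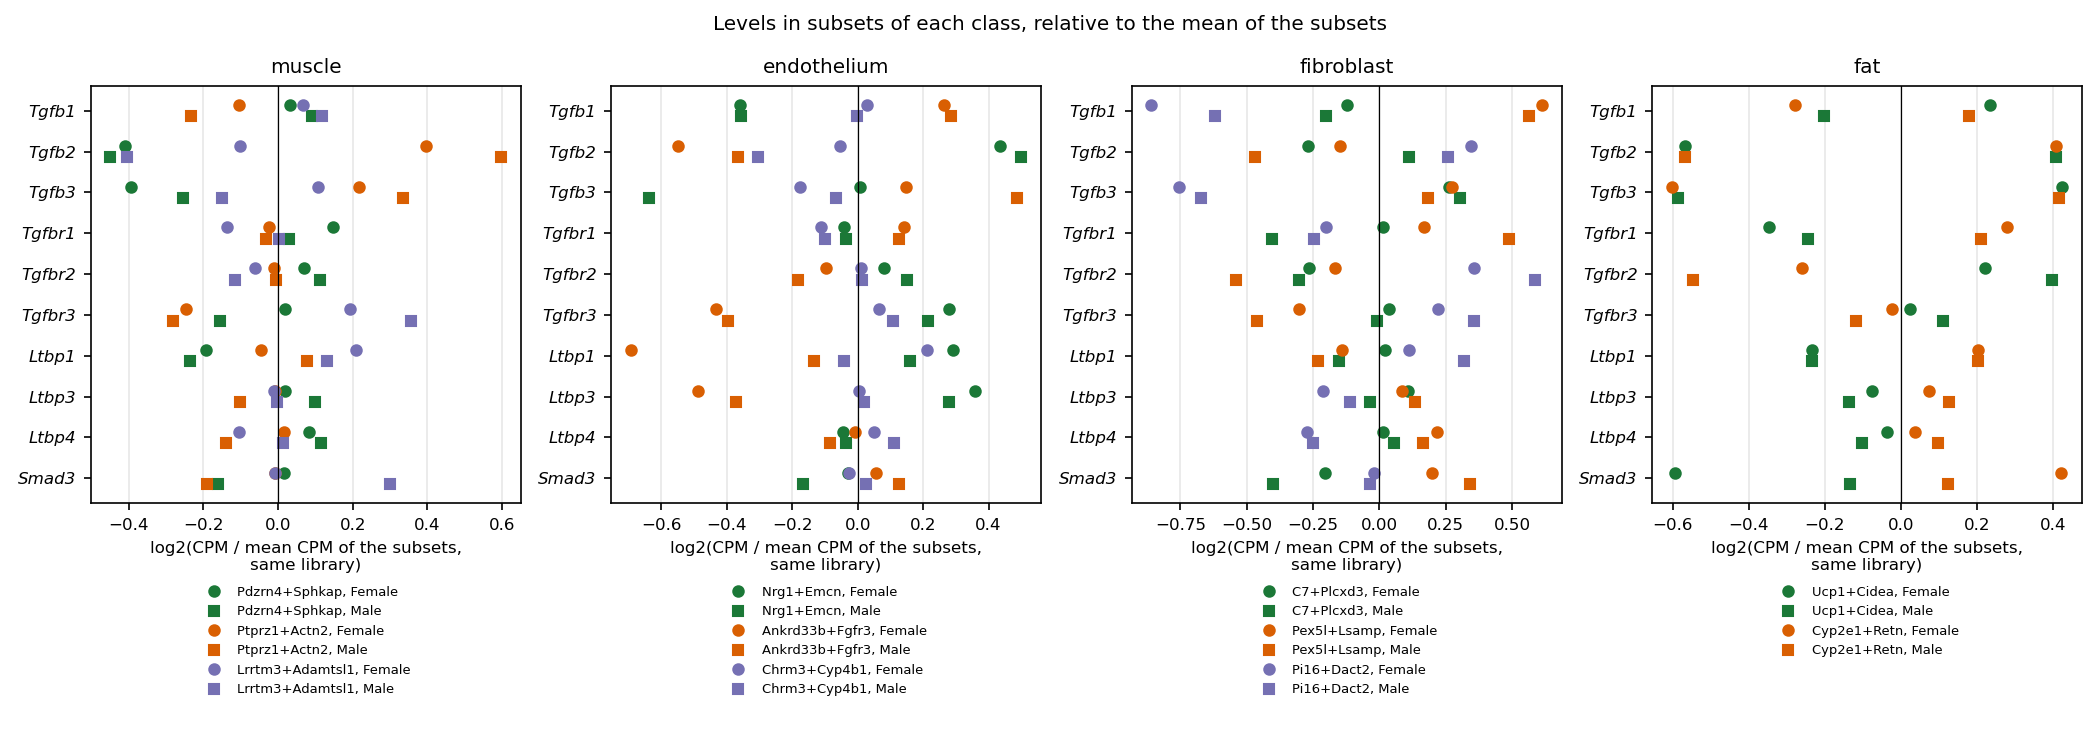
Level of each member in subsets of 4 classes, as log2 of CPM over the mean CPM of the subsets in the same library (horizontal axis), with circles for Female and squares for Male. In muscle, Tgfb2 lies to the right for Ptprz1+Actn2 nuclei in both libraries, and in fibroblast nuclei Tgfb3 lies to the left for Pi16+Dact2 nuclei.

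Within classes, nuclei were also grouped by pairs of genes that had marked clusters of the same nuclei, so the values are a description without a test. Muscle nuclei with Ptprz1 and Actn2 had 274 and 377 CPM of Tgfb2 in the Female and Male libraries, those with Lrrtm3 and Adamtsl1 194 and 188, and those with Pdzrn4 and Sphkap 157 and 182. The Ptprz1 nuclei were highest in both libraries without overlap. Tgfb3 had 44.0 and 63.1 CPM in the Ptprz1 nuclei, 40.7 and 45.1 CPM in the Lrrtm3 nuclei and 28.8 and 42.0 CPM in the Pdzrn4 nuclei. For this gene the Ptprz1 and Lrrtm3 values overlapped between libraries. Ltbp1 was instead highest in the Lrrtm3 nuclei, with 2035 and 1908 CPM, against 1704 and 1836 in the Ptprz1 nuclei and 1539 and 1479 in the Pdzrn4 nuclei. Tgfbr3 was likewise highest in the Lrrtm3 nuclei, with 311 and 311 CPM.

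Endothelium with Nrg1 and Emcn and endothelium with Ankrd33b and Fgfr3 had unlike levels of Tgfb1 and Tgfb2. Tgfb2 had 165 and 152 CPM in the Nrg1 nuclei and 83.1 and 83.5 CPM in the Ankrd33b nuclei. Tgfb1 had 49.1 and 55.3 CPM in the Nrg1 nuclei and 75.5 and 86.4 CPM in the Ankrd33b nuclei. Ltbp3 followed Tgfb2, with 205 and 203 CPM against 114 and 129.6 CPM, and Tgfbr3 did too, with 238 and 239 CPM against 145 and 156 CPM. Ltbp4, the leading member of endothelium, ranged only from 851 to 991 CPM over its 3 subsets in the 2 libraries.

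Fibroblast nuclei with Pi16 and Dact2 had more Tgfbr2 and Tgfbr3 and less Tgfb3 than those with C7 and Plcxd3. Tgfbr2 had 406 and 364 CPM in the Pi16 nuclei and 264 and 196 CPM in the C7 nuclei, and Tgfbr3 had 928 and 1292 CPM against 815 and 1003 CPM. Tgfbr1 had 78.4 and 99.2 CPM in the Pi16 nuclei and 90.9 and 89.1 CPM in the C7 nuclei, so the libraries went opposite ways. Tgfb3 had 39.5 and 31.7 CPM in the Pi16 nuclei and 79.9 and 62.5 CPM in the C7 nuclei. Smad3 was highest in nuclei with Pex5l and Lsamp, at 368 and 395 CPM. In fat, nuclei with the thermogenic genes Ucp1 and Cidea had 395 and 421 CPM of Tgfbr2, and nuclei with Cyp2e1 and Retn had 283 and 219 CPM. Smad3 was the other way round, with 72.0 and 88.8 CPM in the Ucp1 nuclei and 145 and 106 CPM in the Cyp2e1 nuclei.

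Over the 10 values of log2(CPM + 1), from 5 classes in 2 libraries, Tgfb2 and Ltbp1 had the most alike patterns of any 2 members (Pearson r = 0.918), and Tgfb1 and Tgfbr3 the most opposed (r = -0.929). Among 7547 other genes, those nearest to Ltbp1 were Col4a6, Col4a5 and Gpsm2 (r from 0.983 to 0.991), and those nearest to Ltbp4 were Mgp, Fbxl7 and Pear1 (0.996 to 0.998). Nalcn, Sobp and Anapc5 were nearest to Tgfb2 (0.990 to 0.992), and Obsl1, Aspn and Runx1t1 to Tgfb3 (0.980 to 0.988). Flna, Myocd and Kcnab1 were nearest to Tgfbr1 (0.974 to 0.981), and Tle4, Inpp5k and Serinc3 to Tgfb1 (0.985 to 0.992). The 10 points share libraries, depth and class composition, so these values are a description.

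The reporter comparison asked whether members differed between GFP-only and tdTomato-only nuclei of 1 class. GFP-only nuclei numbered 2420 Female and 2196 Male in muscle, against 1729 and 1430 tdTomato-only nuclei, and 415 and 450 in fibroblast, against 285 and 321. A GFP UMI was found in 36.4% and 36.1% of muscle nuclei and 21.7% and 21.1% of fibroblast nuclei, but also in 15.9% and 16.2% of endothelium and 13.5% and 11.8% of macrophage nuclei. GFP-only muscle nuclei were shallower, with medians of 4027.5 and 3438 UMIs, against 4544 and 3873.5 UMIs in tdTomato-only nuclei. The part of free GFP RNA and depth in the values was not tested.

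No member passed the threshold in either class (edgeR quasi-likelihood test on 4 sums with the library as a block). In muscle, 0 of 10 members were called, with 2.17% of all genes called (0.989% higher and 1.18% lower), and 0 by DESeq2. Under an unadjusted edgeR p of 0.05 there were 3 members, with 11.9% of all genes. The nearest was Tgfb3, with 44.5 and 61.1 CPM in GFP-only nuclei of the Female and Male libraries, against 31.9 and 48.8 CPM in tdTomato-only nuclei. Its log2 fold change was 0.40 (SE 0.0843, edgeR adjusted p = 0.0564), with adjusted p from 0.000871 to 0.0494 in 5 alternatives. Tgfb1 ran the other way, with 25.6 and 22.9 CPM against 34.1 and 28.3 CPM (-0.37, SE 0.105, edgeR adjusted p = 0.154). Tgfb2 had 223 and 304 CPM in GFP-only nuclei, against 207 and 279 CPM (0.11, SE 0.0407, edgeR adjusted p = 0.296). Ltbp1 had 1580 and 1769 CPM in GFP-only nuclei and 1606 and 1668 CPM in tdTomato-only nuclei, and the 95% interval of its fold ran from 0.961 to 1.08.

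In fibroblast nuclei 0 of 10 members were called, with 4.31% of all genes called (1.21% higher and 3.1% lower), and 0 by DESeq2. Under an unadjusted edgeR p of 0.05 there were 2 members, with 12.4% of all genes. Ltbp1 was nearest, with 796 and 632 CPM in GFP-only nuclei, against 575 and 474 CPM in tdTomato-only nuclei (0.46, SE 0.134, edgeR adjusted p = 0.0567). It passed in 4 alternatives, with adjusted p from 0.00219 to 0.0307. Tgfbr1 had 84.9 and 102 CPM in GFP-only nuclei and 108 and 134 CPM in tdTomato-only nuclei (-0.36, SE 0.157, edgeR adjusted p = 0.331). In a fit of both classes, added after the data were seen, 0 of 10 members passed for a difference between the muscle and fibroblast effects (edgeR, 0.783% of all genes called, 5 members under an unadjusted p of 0.05). For Ltbp1 that difference was -0.43 (SE 0.106, edgeR adjusted p = 0.123).

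**Figure D4:**
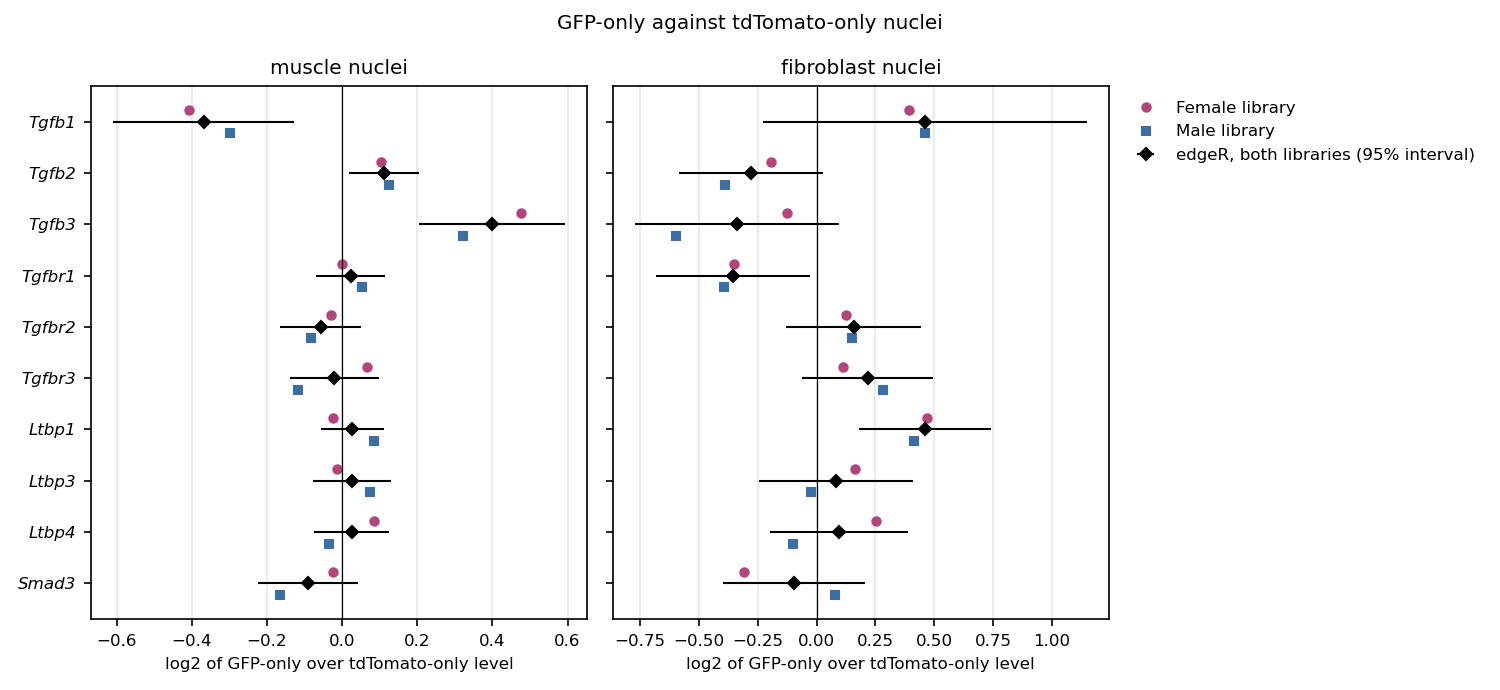
Log2 of the level in GFP-only over tdTomato-only nuclei for each member in muscle (left) and fibroblast nuclei (right). Black diamonds with bars are the edgeR estimate and its 95% interval, and circles and squares the Female and Male libraries alone. Intervals, not adjusted for the number of genes, lie above 0 for Tgfb2 (0.11) and Tgfb3 (0.40) in muscle and Ltbp1 (0.46) in fibroblast nuclei. They lie below 0 for Tgfb1 in muscle (-0.37) and Tgfbr1 in fibroblast nuclei (-0.36).

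Of the pathway list, 50 genes were tested in muscle, of which Ltbp2 rose in GFP-only nuclei (0.64, SE 0.0782, edgeR adjusted p = 0.00497) and Fn1 fell (-0.22, SE 0.0400, edgeR adjusted p = 0.0306). Over all genes tested in muscle, 0.989% were called higher and 1.18% lower. In fibroblast nuclei, where 1.21% of all genes were called higher and 3.1% lower, 4 of 47 list genes rose and 0 fell. They were the matrix genes Postn (1.49, SE 0.239, edgeR adjusted p = 0.000278) and Comp (1.38, SE 0.221, edgeR adjusted p = 0.000281), the protease gene Mmp14 (0.63, SE 0.170, edgeR adjusted p = 0.0351) and Col1a1 (0.55, SE 0.137, edgeR adjusted p = 0.0188). DESeq2 called 0 genes of the list in either class.

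With 1 pooled library per sex, the Female and Male levels allow no test, and the 95% intervals below cover counting error only. In muscle, Tgfb2 had 218 CPM in Female and 287 in Male nuclei, a ratio of 0.760 (0.736 to 0.784). Tgfb3 had a ratio of 0.709 (0.659 to 0.762) and Tgfbr1 of 0.806 (0.783 to 0.829), while Smad3 had 1.27 (1.21 to 1.34) and Tgfbr3 1.20 (1.16 to 1.24). The ratio of Ltbp3 had an interval from 0.967 to 1.03. Of the 10 members in muscle, 4 had an interval above 1, 4 had one below 1 and 2 had one that included 1. The third ligand, Tgfb1, lay above 1 (1.12, 1.02 to 1.23). No share of all genes is given for these intervals. No member of muscle was 2-fold apart, as 0.375% of all genes were.

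In fibroblast nuclei Tgfbr3 had 808 CPM in Female and 1054 in Male nuclei (0.767, 0.744 to 0.790). Tgfbr2 ran the other way, with 325 and 261 CPM (1.25, 1.18 to 1.32), as did Ltbp1 (1.19, 1.15 to 1.24). In endothelium Tgfb2 had 123 and 98.8 CPM (1.25, 1.18 to 1.32), the opposite of muscle. Among members that passed the level filter of 20 CPM, 10 in muscle, 9 in endothelium, 9 in fibroblast and 7 in fat, none was 2-fold apart, with backgrounds of 0.375%, 0.412%, 0.905% and 2.02% of genes. Macrophage nuclei had 1 of 9, Ltbp1, with 1.94% of genes 2-fold apart.

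Ltbp1 in macrophage nuclei had 245 CPM in Female and 98.8 in Male nuclei (2.48, 2.09 to 2.94). It rested on few nuclei: 5 nuclei held 46.4% of those UMIs in Female and 51.6% in Male nuclei, and nuclei called as doublets held 42.9% and 79.1%. The log2 ratio, with 5 CPM added, was 1.27, and it was 2.53 with doublets left out, 0.91 with a marker sum of at least 5 and 0.997 without the barcodes shared by both libraries. Tgfb2 had 43.7 and 24.1 CPM there (1.81, 1.24 to 2.64), from 65 and 55 UMIs, of which 5 nuclei held 58.5% and 49.1% and nuclei called as doublets 27.7% and 47.3%. Tgfbr1 had 98.2 and 149 CPM (0.658, 0.538 to 0.801).

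**Figure D5:**
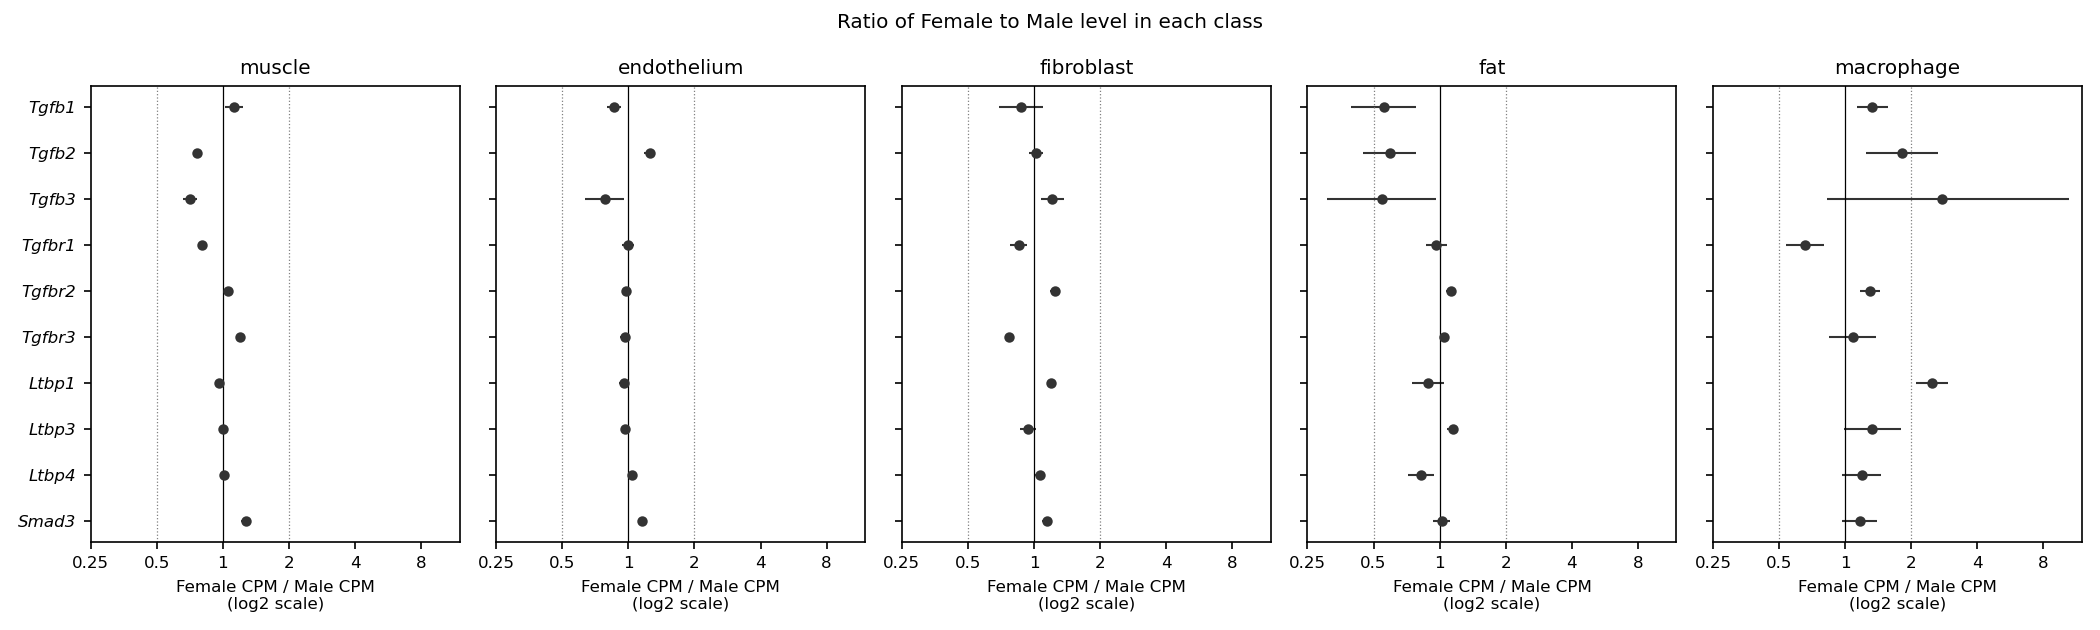
Ratio of Female to Male CPM (log2 scale) for each member in the 5 classes, with exact 95% intervals for counting error only and dotted lines at 0.5 and 2. Intervals in muscle lie left of 1 for Tgfb2, Tgfb3, Tgfbr1 and Ltbp1, and right of 1 for Tgfb1, Tgfbr2, Tgfbr3 and Smad3. Of the members that passed the level filter only Ltbp1 in macrophage nuclei lies past 2.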

How the data were processed

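Per the labels' protocols, nuclei were isolated from pooled aortic tissue and loaded on a droplet system. The authors deposited unnormalized counts of UMIs for each gene in each barcode. The submitters' processing notes name STAR, Cell Ranger, Seurat 4.4.0 and the GRCm38 build, and Cell Ranger 7.0.0 wrote the matrices, per the file headers. Whether intronic reads were counted, and on which strand, is not given in the sources used here; counts are per whole gene.

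Counts were summed per class and library and tested in edgeR 4.0.16 (R 4.3.3; TMM scaling, a library block, a minimum of 50 UMIs per gene), after the script had been tested on simulated data. The 15 marker genes of the classes and both reporter genes were left out of gene counts. Ratios of the sexes had 5 CPM added to each level before the log2 was taken, with genes at 20 CPM or more in either library. Intervals are exact (Poisson, Clopper-Pearson or conditional binomial) at 95%. Doublets, called with scrublet in 4.99% of Female and 7.28% of Male nuclei, were kept and removed in an alternative. GFP-only nuclei had at least 1 GFP and 0 tdTomato UMIs, and tdTomato-only nuclei the reverse. Subsets needed at least 2 UMIs of a gene pair. Gene positions came from a GRCm38 annotation matched by Ensembl identifier.

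All 10 members are named. Up to 4 called pathway genes per direction are named in a class contrast and up to 3 in a reporter contrast, by size of change, and Col1a1 is named in addition, after its value was seen. Some genes that this rule takes are not reported here. For nearest patterns, the 3 genes of highest r with a mean of 20 CPM or more are named for 6 members. The members and lists were chosen with earlier results of these data known. Alternatives were DESeq2 1.42.0 and its size factors, no filter, no block, stricter or purer classes (the largest marker sum at least 4 times the next), doublets and nuclei over 10% mitochondrial UMIs removed, thinning to 1000 UMIs, other pseudocounts and each library alone. Leaving out shared barcodes in the class and reporter fits was chosen after seeing the data. Nuclei were read and summed in Python 3.11.15 with scanpy 1.11.5, pandas 2.3.3, scipy 1.17.1 and numpy 2.4.6.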

Additional observations from a re-analysis of the deposited data

Results flagged for a closer look

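For 6 members the ratio of Female to Male CPM lay above 1 in some classes and below 1 in others. Each of those values had a counting interval that left out 1. No share of all genes with this pattern is given, so it is not read as particular to the members. These differences between classes were not tested, since each sex is 1 pooled library. Tgfb1 had a ratio of 1.12 in muscle and 1.33 in macrophage nuclei, but 0.862 in endothelium and 0.558 in fat. Tgfb2 had 1.25 in endothelium and 1.81 in macrophage nuclei, but 0.760 in muscle and 0.592 in fat. The macrophage value rests on 65 and 55 UMIs, of which 5 nuclei held 58.5% and 49.1%, so its counting interval covers only part of the error. Tgfb3 had 1.21 in fibroblast nuclei, but 0.709 in muscle, 0.779 in endothelium and 0.547 in fat. Levels of all 3 ligands in fat and of Tgfb3 in endothelium were low, under 15 CPM.

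Tgfbr3, the co-receptor, had a ratio of 1.20 in muscle and 1.05 in fat, but 0.767 in fibroblast nuclei. Ltbp1 had 1.19 in fibroblast and 2.48 in macrophage nuclei, but 0.956 in muscle. Ltbp4 had 1.03 in endothelium and 1.06 in fibroblast nuclei, but 0.822 in fat.

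For 4 members, the GFP-only over tdTomato-only value in muscle had the same sign in both libraries. In fibroblast nuclei of both libraries it had the opposite sign. The members were picked by this pattern, and no share of all genes with it is given. For Tgfbr2 the muscle values were only -0.03 and -0.08 in the Female and Male libraries. The muscle minus fibroblast difference was -0.83 for Tgfb1 (edgeR adjusted p = 0.333), 0.39 for Tgfb2 (edgeR adjusted p = 0.284), 0.73 for Tgfb3 (edgeR adjusted p = 0.194) and -0.22 for Tgfbr2 (edgeR adjusted p = 0.585). None of these differences passed the threshold.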

How the results depend on the processing

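Among member values, 42 of 50 class-over-rest values and 32 of 40 neighbour values kept their side of the threshold and their direction in every alternative run on both libraries, and 6 of 20 reporter values did. Tgfbr1 in macrophage nuclei over the other 4 classes (0.00) became -0.049 with no filter, -0.47 with a marker sum of 5 (then called lower, edgeR adjusted p = 0.00893), -0.18 in pure nuclei, -0.038 thinned and -0.061 without shared barcodes. Tgfb3 in macrophage over fat (0.39) became -0.90 in pure nuclei and -0.76 without doublets. Tgfbr1 in macrophage over endothelium (0.15) became -0.32 with a marker sum of 5. Ltbp1 in macrophage over endothelium (0.09) became -0.17 with a marker sum of 5, -0.28 in pure nuclei, -0.38 without doublets, -0.17 thinned and -0.088 without shared barcodes. Smad3 in macrophage over muscle (0.11) became -0.00172 with a marker sum of 5. The cause was not tested for any value here.

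In the muscle reporter comparison, nuclei with Pdzrn4 and Sphkap alone gave Tgfb2 -0.075, Tgfbr1 -0.097, Tgfbr2 0.14, Tgfbr3 0.014, Ltbp3 -0.075, Ltbp4 -0.039 and Smad3 0.025. Nuclei with Ptprz1 and Actn2 alone gave Ltbp1 -0.059. With 2 or more reporter UMIs, Tgfbr1 was -0.061, Tgfbr3 0.060 and Ltbp1 -0.053. Pure nuclei gave Ltbp1 -0.013 and Ltbp3 -0.018, nuclei without doublets Tgfbr1 -0.00522, Ltbp1 -0.010 and Ltbp3 -0.00553, and thinned nuclei Tgfbr1 -0.038 and Tgfbr2 0.013. In fibroblast nuclei, Tgfb2 was 0.11 in nuclei with Pex5l and Lsamp alone, Ltbp3 -0.032 with 2 or more reporter UMIs and Ltbp4 -0.26 in nuclei with C7 and Plcxd3 alone.

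The muscle reporter comparison called 316 genes. It called 94 by DESeq2, 887 with no filter, 668 in pure nuclei, 482 without doublets, 624 without shared barcodes and 106 in Pdzrn4 nuclei alone. Members called were 1 with size factors of DESeq2, with no filter, in pure nuclei and without doublets, and 2 without shared barcodes (Tgfb3 and Tgfb1). Pathway genes called (2) became 4 with size factors of DESeq2, 0 by DESeq2, 7 with no filter, 4 with 2 reporter UMIs, 5 in pure nuclei, 4 without doublets, 1 thinned, 5 without shared barcodes, 1 in Pdzrn4 and 4 in Ptprz1 nuclei alone. The fibroblast comparison called 467 genes, against 129 by DESeq2, 156 thinned, 132 in C7 nuclei and 37 in Pex5l nuclei alone. Members called there were 1 with no filter, with 2 reporter UMIs, without doublets and without shared barcodes (Ltbp1). Pathway genes called (4) became 0 by DESeq2 and thinned, 2 in C7 and 1 in Pex5l nuclei alone.

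With no replicate block (the library not in the model), the muscle comparison called 2 genes and 0 of the pathway list, and the fibroblast comparison 39 and 1. The class and reporter fits were paired by library through that block. For Female against Male, no paired analysis was possible because each sex has 1 library. In single libraries, the called class values kept their sign, with Ltbp1 in muscle at 3.34 to 3.74. Both libraries had entered those calls, so the signs are no separate check. Tgfb1 in macrophage nuclei was at 2.58 to 3.25 and Ltbp1 there at -1.35 to -0.03.

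Of the sex ratios, 35 of 50 member values moved by less than counting error in every alternative. With a pseudocount of 20 CPM, genes 2-fold apart numbered 13 in muscle (main 27), 12 in endothelium (31), 26 in fibroblast (70), 59 in fat (153) and 64 in macrophage nuclei (151), the last being 62 after thinning. Members 2-fold apart in macrophage nuclei numbered 0 with a marker sum of 5 and without shared barcodes, and 2 without doublets. Ligand levels in fat, Tgfb3 in macrophage nuclei (9 and 5 UMIs) and the 481 and 696 macrophage nuclei set the limit of depth.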
